A study of Mus musculus with 12 samples.

Results

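The genes described here are 10 components of the Notch pathway in mouse vessels: the receptors Notch1, Notch2, Notch3 and Notch4, the ligands Jag1 and Dll4, the DNA-binding partner Rbpj, and the target genes Hey1, Hey2 and Heyl. The rule for them is their name and place in the pathway, and they were chosen with earlier results of these data known, so their counts below describe these genes only. All 10 are among the 30827 genes that the arrays measured with a transcript cluster (a probe set for the exons of a gene) assigned to 1 gene, and all 10 are among the 22154 genes that passed the filter on dim signals. Each has exactly 1 such cluster.

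Notch receptors sit in the plasma membrane and are activated by ligands on a neighbouring cell. Ligand binding exposes the receptor to cleavage, first by a metalloprotease outside the membrane and then by gamma-secretase within it, which frees the intracellular domain. That domain enters the nucleus, binds Rbpj and recruits Mastermind coactivators and histone acetyltransferases, and genes of the Hes and Hey families of basic helix-loop-helix repressors are transcribed. In arteries, Dll4 and Notch4 are known chiefly from endothelial cells and Notch3 from smooth muscle, and Jag1 on endothelium signals to the smooth muscle around it.

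Total RNA of mouse vessel was hybridised to 12 arrays in 4 groups of 3. Male C57BL/6 mice aged 8 to 10 weeks were measured without Angiotensin II (day 0) and after 1, 3 or 7 days of Angiotensin II, the vasoconstrictor peptide of the renin-angiotensin system, delivered at 1500 ng per kg per min by implanted osmotic pumps in acidified Ringer's solution. The 3 arrays of a group are described as biological replicates, with no word on whether animals were pooled. The labels name neither the vessel nor a vehicle pump at day 0, and the effects of implantation and of the peptide cannot be told apart.

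Signals are on a log2 scale, on which 1 unit is a doubling, and a gene was called when its adjusted p (limma, Benjamini-Hochberg over all 22154 tested genes) was under 0.05. Pearson r between arrays of a group was 0.974 to 0.993. The gap between positive and negative control features averaged 2.59 ± 0.05, 2.25 ± 0.29, 1.98 ± 0.14 and 1.76 ± 0.49 log2 units on the arrays of days 0, 1, 3 and 7 (SD, n = 3 each), with its lowest value, 1.20, on day 7 replicate 1. It was below every day 0 array on all 9 treated arrays, so the arrays' contrast moved with treatment, and each called change of the 10 genes is followed by its value with this gap as a covariate. The median change of all tested genes was 0.01 at day 1, 0.08 at day 3 and 0.10 at day 7. The labelled tissue was borne out by contractile smooth muscle genes, all 13 of which lay above the negative control median at day 0. Adipocyte genes were also high at day 0, with a list mean of 11.27 to 11.55.

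The target gene Hey2 changed more than any other of the 10 genes, and its promoter is shown because it holds the core of the sequence that Rbpj recognises in 2 places. The promoters of Notch2, the receptor that fell, and Notch4, the receptor that rose, are shown for comparison. Each runs 5′ to 3′ from 250 bases before to 50 bases after the annotated start (RefSeq, GRCm38.p6). The capitals mark GTGGGAA or its reverse complement TTCCCAC. The windows are chr10:30842734-30843033 (minus strand) for Hey2, chr3:98013288-98013587 (plus strand) for Notch2 and chr17:34564045-34564344 (plus strand) for Notch4.
Hey2: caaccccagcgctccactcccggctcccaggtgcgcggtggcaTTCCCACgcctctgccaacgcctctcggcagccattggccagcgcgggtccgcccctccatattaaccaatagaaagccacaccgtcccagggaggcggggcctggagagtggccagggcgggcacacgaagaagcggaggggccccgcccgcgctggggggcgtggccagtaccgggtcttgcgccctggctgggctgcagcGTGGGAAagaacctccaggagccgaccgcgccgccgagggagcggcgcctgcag
Notch2: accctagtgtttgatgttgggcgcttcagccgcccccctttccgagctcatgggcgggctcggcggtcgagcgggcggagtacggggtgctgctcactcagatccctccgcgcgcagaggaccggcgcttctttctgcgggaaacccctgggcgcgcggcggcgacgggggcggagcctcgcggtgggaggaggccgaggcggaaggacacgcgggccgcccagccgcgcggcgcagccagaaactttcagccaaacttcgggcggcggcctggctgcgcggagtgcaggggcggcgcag
Notch4: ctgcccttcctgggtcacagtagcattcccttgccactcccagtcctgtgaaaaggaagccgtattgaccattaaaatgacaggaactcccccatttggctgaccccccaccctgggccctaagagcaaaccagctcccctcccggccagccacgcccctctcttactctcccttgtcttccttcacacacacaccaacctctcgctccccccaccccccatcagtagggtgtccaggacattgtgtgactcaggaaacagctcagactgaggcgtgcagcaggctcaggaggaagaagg
In the Hey2 window TTCCCAC begins at base 44 and GTGGGAA at base 247, so the motif lies once in each orientation, the second copy next to the start. Searched on both strands, GTGGGAA was present in 2097 of 32851 promoters of the same length (6.38%). It occurred at least 2 times in 84 of them (0.256%) and in both orientations in 33 (0.1%). The table holds promoters of 8 of the 10 genes, and GTGGGAA was in none of the windows of the other 7. The shorter TGGGAA, which GTGGGAA contains, was in 25.6% of all promoters, and Rbpj's own windows hold it. A match describes the letters and shows no binding, and Hey1 and Heyl were not matched.

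Hey2 (chr10:30832359-30842783, GRCm38), a transcriptional repressor that in arteries is a classical Notch target, fell under Angiotensin II. Its signals were 9.49, 10.30 and 10.14 at day 0, 8.87, 8.21 and 8.79 at day 1, 7.85, 8.40 and 7.96 at day 3, and 6.98, 6.32 and 8.04 at day 7. Every one of the 9 treated arrays was below every day 0 array, and the day 7 arrays were the most spread, with replicate 3 the highest of them. Group means were 9.97 ± 0.43, 8.62 ± 0.36, 8.07 ± 0.29 and 7.12 ± 0.86 in the order of the days. Against day 0 the log2 change was -1.91 ± 0.40 at day 3 (SE, adjusted p = 0.0189), a 3.75-fold lower signal. At day 7 it was -2.86 ± 0.40 (adjusted p = 0.00237), 7.26-fold lower, with a 95% interval from -3.77 to -1.95. At day 1 the change of -1.35 ± 0.40 did not pass (adjusted p = 0.110). With the control feature gap as a covariate it measured -1.74 at day 3 (adjusted p = 0.145) and -2.63 at day 7 (adjusted p = 0.0711).

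Heyl (chr4:123233556-123249870), a relative of Hey2 expressed in smooth muscle and pericytes of many vessels, fell as well, by a smaller amount. It measured 7.34, 7.31 and 7.57 at day 0, 6.48, 6.70 and 6.84 at day 1, 6.91, 6.89 and 6.42 at day 3, and 6.38, 6.26 and 6.84 at day 7. All treated arrays lay below all day 0 arrays, and the 3 treated groups overlapped each other. The log2 change was -0.73 ± 0.18 at day 1 (adjusted p = 0.0636), -0.67 ± 0.18 at day 3 (adjusted p = 0.0461) and -0.91 ± 0.18 at day 7 (adjusted p = 0.00941), where the signal was 1.88-fold lower. With the control feature gap it measured -0.40 at day 3 (adjusted p = 0.371) and -0.55 at day 7 (adjusted p = 0.291). The day 3 call was lost in 14 of the 22 alternative analyses, 8 of which each leave out 1 array: any of the day 0 or day 3 arrays, or day 1 replicate 2 or 3.

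Hey1 (chr3:8663359-8667038), the remaining family member and a Notch target of endothelial cells, could not be followed well. It measured 6.04, 6.05 and 5.40 at day 0, 6.17, 5.75 and 5.88 at day 1, 5.99, 6.12 and 6.05 at day 3, and 6.29, 6.02 and 6.06 at day 7. These values surround the negative control median of their arrays, which Hey1 exceeded on 2, 1, 2 and 2 of the 3 arrays of days 0, 1, 3 and 7. Its change at day 7 was 0.29 ± 0.18 (adjusted p = 0.227, 95% interval -0.11 to 0.69). A fall of Hey1 would be hard to see from so low a signal.

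**Figure D1:**
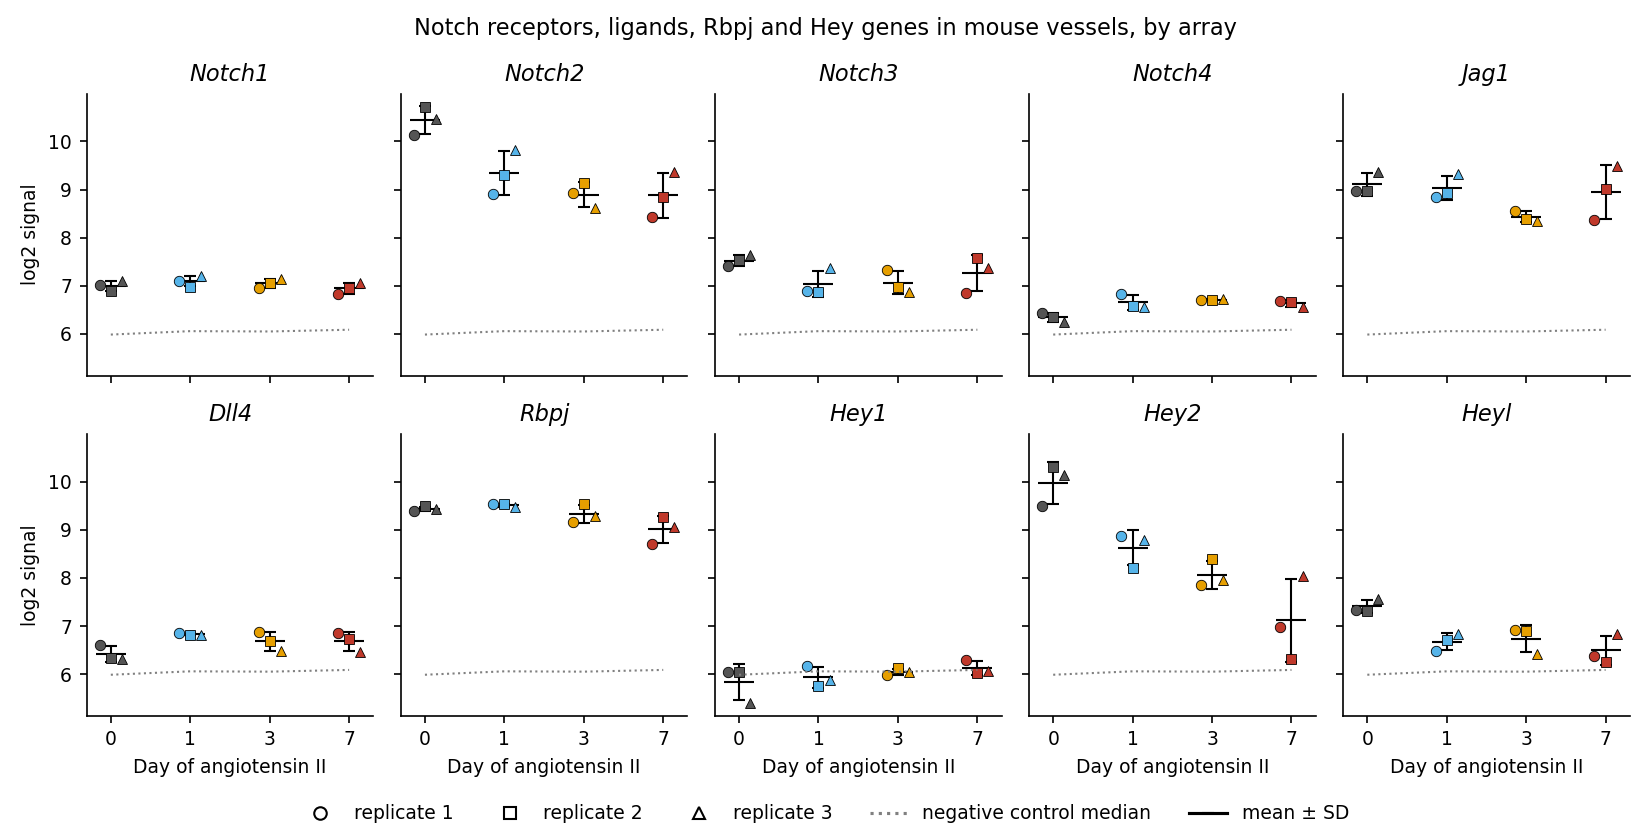
Log2 signal (y axis) of the 10 Notch pathway genes in each of the 12 arrays at days 0, 1, 3 and 7 of Angiotensin II (x axis). Symbols are replicates, bars are mean ± SD, and the dotted line is the negative control median. Hey2, Notch2 and Heyl lie lower on all treated arrays than on any day 0 array, and Hey1 lies near the dotted line.

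Among the receptors Notch2 fell, Notch4 rose slightly, and Notch1 and Notch3 were not called at any time. Notch2 (chr3:98013538-98150367), a receptor of smooth muscle and many other cells, measured 10.14, 10.72 and 10.46 at day 0, 8.91, 9.31 and 9.83 at day 1, 8.93, 9.13 and 8.62 at day 3, and 8.44, 8.84 and 9.37 at day 7. Each treated array was below each day 0 array, and day 3 and day 7 had nearly equal means of 8.90 ± 0.26 and 8.88 ± 0.47. The log2 change was -1.09 ± 0.29 at day 1 (adjusted p = 0.0758), -1.55 ± 0.29 at day 3 (adjusted p = 0.0128) and -1.56 ± 0.29 at day 7 (adjusted p = 0.00664). The day 3 and day 7 values are 2.92-fold and 2.95-fold lower signals. With the control feature gap they were -0.89 (adjusted p = 0.089) and -0.67 (adjusted p = 0.227).

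Notch4 (chr17:34564286-34588543), the receptor known mainly from endothelium, measured 6.43, 6.35 and 6.26 at day 0, 6.84, 6.58 and 6.56 at day 1, 6.71, 6.70 and 6.73 at day 3, and 6.69, 6.67 and 6.56 at day 7. All treated arrays were above all day 0 arrays, within a span of less than 1 log2 unit. It rose by 0.37 ± 0.09 at day 3 (adjusted p = 0.0275, 1.29-fold) and by 0.30 ± 0.09 at day 7 (adjusted p = 0.0371, 1.23-fold), and the day 1 change of 0.31 ± 0.09 had an adjusted p of 0.0856. These calls depend on the scaling: with arrays centred on their medians the changes were 0.19 (adjusted p = 0.279) and 0.02 (adjusted p = 0.893), and neither was called after quantile normalization. With the control feature gap they were 0.25 (adjusted p = 0.22) and 0.13 (adjusted p = 0.61). The day 3 call was lost without day 0 replicate 2 or 3 or any of the day 3 arrays, and the day 7 call without any of the day 0 arrays, day 3 replicate 2 or 3, or day 7 replicate 1 or 2.

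Notch3 (chr17:32120820-32166896), the receptor of arterial smooth muscle and pericytes, measured 7.40, 7.54 and 7.63 at day 0, 6.90, 6.87 and 7.36 at day 1, 7.33, 6.98 and 6.88 at day 3, and 6.86, 7.58 and 7.38 at day 7. The day 1 and day 3 arrays were below all day 0 arrays, while the day 7 arrays overlapped them. Its changes of -0.48, -0.46 and -0.26 (SE 0.21 each) had adjusted p-values of 0.276, 0.177 and 0.351. The 95% interval at day 7, -0.72 to 0.20, does not exclude a fall of that size or no change.

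Notch1 (chr2:26457902-26503822), a receptor of endothelial and many other cells, stayed within a narrow band. It measured 7.02, 6.89 and 7.10 at day 0, 7.11, 6.98 and 7.20 at day 1, 6.96, 7.06 and 7.14 at day 3, and 6.83, 6.95 and 7.06 at day 7. The treated arrays overlapped day 0 at all times, and the changes of 0.10, 0.05 and -0.06 (SE 0.09 each) had adjusted p-values of 0.761, 0.744 and 0.661.

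Neither ligand was called. Jag1 (chr2:137081451-137116520), the ligand through which endothelium and smooth muscle signal to smooth muscle, measured 8.98, 8.97 and 9.37 at day 0, 8.84, 8.93 and 9.32 at day 1, 8.56, 8.38 and 8.35 at day 3, and 8.37, 9.01 and 9.49 at day 7. The day 3 arrays alone lay below all day 0 arrays, and day 7 spanned more than any other group, with an SD of 0.56. The changes were -0.08, -0.67 and -0.15 (SE 0.26 each) with adjusted p-values of 0.976, 0.122 and 0.665. At day 3 the call depended on the arrays in the fit: adjusted p was 0.0272 in a fit of the 6 arrays compared and 0.0376 without day 7 replicate 1.

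Dll4 (chr2:119325784-119335666), the ligand of arterial and sprouting endothelium, measured 6.61, 6.34 and 6.32 at day 0, 6.85, 6.82 and 6.81 at day 1, 6.88, 6.69 and 6.47 at day 3, and 6.85, 6.73 and 6.46 at day 7. The day 1 arrays were all above day 0, and the later ones overlapped it. Its changes of 0.40, 0.26 and 0.26 (SE 0.13 each) did not pass, with adjusted p-values of 0.148, 0.234 and 0.160.

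Rbpj (chr5:53555779-53657445), which carries the Notch signal to DNA, was close to its day 0 level until day 7. It measured 9.39, 9.49 and 9.42 at day 0, 9.53, 9.53 and 9.48 at day 1, 9.15, 9.53 and 9.29 at day 3, and 8.71, 9.26 and 9.06 at day 7. The day 7 arrays were below all day 0 arrays. The fall at day 7 was -0.43 ± 0.14 (adjusted p = 0.0488, 1.34-fold lower), just inside the threshold, and it was lost in 14 of the 22 alternatives. Over the 22 the adjusted p ranged from 0.0124, after quantile normalization, to 0.706, with the control feature gap, where the change was -0.16. Without day 7 replicate 1 the change was -0.27 (adjusted p = 0.128), and the call was also lost without any of the day 0 or day 1 arrays, day 3 replicate 3 or day 7 replicate 3. The annotation lists 3 Rbpj pseudogenes, so part of this signal may come from copies.

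Counted together, 0 of the 10 genes were called at day 1 by limma, where 3.6% of all tested genes were called in either direction. At an unadjusted p under 0.05 there were 6 of the 10 at day 1, against 3628 of all 22154 genes. At day 3, 1 of the 10 rose (Notch4), against 4.57% of all genes, and 3 fell (Notch2, Hey2, Heyl), against 7.09%. At day 7, 1 rose (Notch4), against 12.1% of all genes, and 4 fell (Notch2, Hey2, Heyl, Rbpj), against 13.1%. The 10 genes had a median change of 0.00 at day 1, -0.29 at day 3 and -0.20 at day 7. A rise of 1 of 10 genes says little beside the shares of all genes that rose, 4.57% at day 3 and 12.1% at day 7. All of these counts come from comparisons with the same 3 day 0 arrays. The shares of all genes include genes at background, as the filter value of 5.25 lies below the arrays' negative control medians of 5.91 to 6.14. The F test over the 3 times called 3 of the 10, against 14.6% of all genes: Hey2 (adjusted p = 0.0113), Notch2 (adjusted p = 0.0188) and Heyl (adjusted p = 0.0331). Notch4 missed it with an adjusted p of 0.0521.

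With the control feature gap entered as a covariate, 0 of the 10 were called by limma at day 3, at day 7 or in the F test, with 3, 3 and 5 at an unadjusted p under 0.05. The number of all genes called in that fit was 466 at day 3, 776 at day 7 and 939 in the F test. For the unadjusted counts in this paragraph the matching numbers of all genes were not taken. Because the gap moved with treatment, its part in these changes cannot be told apart from that of treatment. With adipocyte signal as the covariate the count was 0 at day 3, with 3 at an unadjusted p under 0.05, and 3 at day 7, in a fit that called 50 of all genes at day 3 and 2530 at day 7. Leaving out 1 array at a time gave 0 to 5 called genes at day 3, with 0 without day 3 replicate 3 (5 at an unadjusted p under 0.05), 1 without day 3 replicate 1, day 0 replicate 2 or day 0 replicate 3, and 2 without day 3 replicate 2. At day 7 it gave 3 to 5, with 3 without day 7 replicate 1, day 3 replicate 3 or any of the 3 day 0 arrays. Calls over all genes moved as well, over 714 to 3529 at day 3 and 2860 to 7472 at day 7. The F test called 1 gene, Hey2, without day 0 replicate 2 or 3. The Hey2 call at day 3 was lost without day 0 replicate 2 (adjusted p = 0.0687), day 0 replicate 3 (0.0685), day 3 replicate 1 (0.0512) or day 3 replicate 3 (0.0733), and the Notch2 call at day 3 without day 3 replicate 3 (0.0575). At day 7 the calls of Hey2, Notch2 and Heyl held without any single array.

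**Figure D2:**
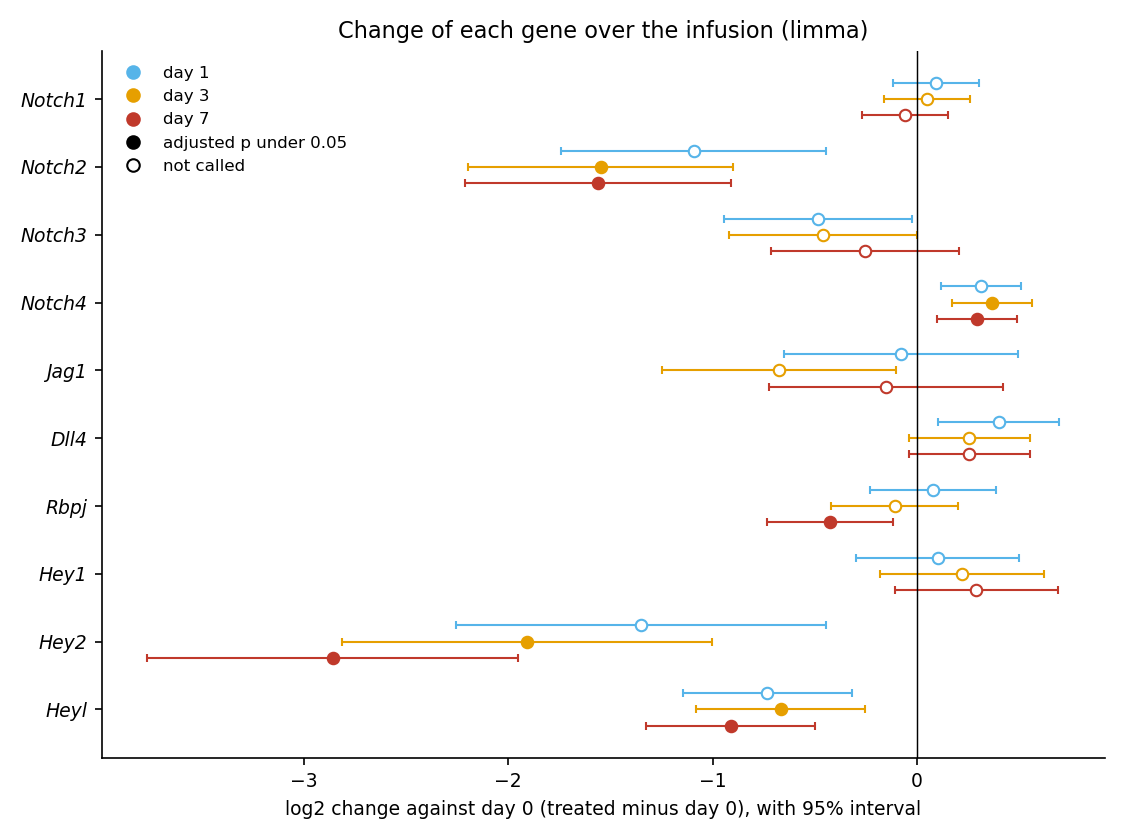
Log2 change against day 0 (x axis) of the 10 genes at days 1, 3 and 7, with 95% intervals as bars; filled points have an adjusted p under 0.05. Hey2 lies farthest left, at -2.86 on day 7, followed by Notch2 at -1.56, and Notch4 is the only filled point to the right of 0.

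Between treated times no member was called. For day 3 against day 1 limma called 0 of the 10, against 0% of all 22154 genes. At an unadjusted p under 0.05 there was 1 of the 10, against 1780 of all genes. For day 7 against day 3 it called 0 of the 10, against 0.266% of all genes. At an unadjusted p under 0.05 there were 2 of the 10, against 2870 of all genes. The largest difference of the 10 was that of Hey2. It measured 6.98, 6.32 and 8.04 at day 7, against 7.85, 8.40 and 7.96 at day 3. The groups overlapped through day 7 replicate 3, and the change of -0.95 had a 95% interval of -1.86 to -0.04 and an adjusted p of 0.363. Notch2 changed by -0.01 in the same comparison. A later fall of Hey2 beyond day 3 was therefore not established at 3 arrays per time.

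Related genes were also compared within each array, where a shift common to a whole array drops out. A loss of contrast between bright and dim signals does not drop out, and its part in these moves was not tested. Hey2 and Notch2, the first genes of the pairs, were called as falling above and had higher signals than their partners at day 0. The difference in signal between probe sets has no meaning as a level, and only its move from day 0 is read. Hey2 minus Heyl averaged 0.62 ± 0.57 at day 7, against 2.57 ± 0.42 at day 0, a move of -1.95. Notch2 minus Notch1 averaged 1.93 ± 0.35 at day 7, against 3.44 ± 0.36 at day 0, and Notch2 minus Notch3 averaged 1.61 ± 0.36 at day 7, against 2.92 ± 0.23 at day 0 (SD, n = 3 each). The moves were -1.50 and -1.31. Each of these 3 day 7 moves had p = 0.1 in an exact two-sided permutation test, the smallest that 3 against 3 arrays allow, and 0.109 after adjustment over the 12 comparisons made, which include Hey2 minus Hey1, not read here because Hey1 was at background. The design cannot reach 0.05 with this test.

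The falls of Hey2, Notch2 and Heyl went along with a loss of signal of contractile smooth muscle genes. Of 13 such genes, 1 fell at day 1, 5 at day 3 and 12 at day 7, with median changes of -1.32, -2.33 and -3.72. Of all tested genes 7.09% fell at day 3 and 13.1% at day 7, and 3.6% were called in either direction at day 1. Myh11, the smooth muscle myosin heavy chain, changed by -6.40 at day 7, and Myocd, the coactivator of the contractile program, by -4.35. The list mean ranged over 13.79 to 13.97 at day 0, 11.71 to 13.50 at day 1, 11.05 to 12.17 at day 3 and 8.49 to 11.11 at day 7. Acta2 reached the upper end of the scale on 8 of the 12 arrays, the 3 day 0 arrays among them, so its part in these means is a bound. Within the treated groups the array order of Heyl matched that of the contractile mean at days 1, 3 and 7. The order of Notch2 matched at day 1 only, and that of Hey2 did not always match. At day 7 replicate 2 was lowest in both, with 6.32 for Hey2 and 8.49 for the contractile mean. At day 1 replicate 1 had the lowest contractile mean, 11.71, and the highest Hey2 signal, 8.87, and at day 3 replicate 1 had the highest contractile mean, 12.17, and the lowest Hey2 signal, 7.85. The control feature gap also had the array order of Heyl at days 1 and 3 and that of Notch2 at days 1 and 7. It had the order of Hey2 at none of these days, and its part in these orders was not tested. In RNA of a whole vessel, fewer cells of a type and less RNA per cell cannot be told apart, and the part of smooth muscle content in the Notch changes was not tested.

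Pericyte genes moved the same way, with 5 of 8 falling and 1 rising at day 7 and a median change of -1.77. Their mean ranged over 8.22 to 9.01 at day 7, against 9.99 to 10.37 at day 0, and Higd1b was below the negative control median on all of these arrays. Of 14 pan-endothelial genes, 1 rose at day 1, 1 rose and 1 fell at day 3, and 2 fell at day 7 (Vwf and Erg), with a median of -0.21 at day 7. Of all tested genes 3.6% were called at day 1 in either direction. Rises and falls made up 4.57% and 7.09% at day 3, and 12.1% and 13.1% at day 7. Counts of 1 or 2 of 14 say little beside these shares. The pan-endothelial mean ranged over 8.55 to 8.89 at day 1, 8.10 to 8.64 at day 3 and 7.70 to 8.21 at day 7. The day 0 range was 8.20 to 8.54, below that of day 1. Robo4 was below the negative control median on all arrays of days 0, 1 and 3. Of 8 arterial endothelial genes 5 fell at day 7, with a median of -1.04. Among them Efnb2, an artery marker and known Notch target, fell by 1.89 at day 3 (adjusted p = 0.0104) and by 2.64 at day 7 (adjusted p = 0.00162). Its changes and those of the other markers were fitted without the control feature gap as a covariate. Gja4, Sox17 and Sema3g were below the negative control median at day 0. Macrophage genes rose, 9 of 10 at day 7, with a mean of 8.44 to 9.59 at day 7, against 7.23 to 7.56 at day 0. Of 9 tested skeletal or cardiac muscle genes 7 rose at day 7, with a median change of 1.01, and the list mean was 6.10 to 6.77 at day 7, against 5.41 to 5.69 at day 0. The adipocyte mean ranged over 9.60 to 11.18 at day 1, 10.42 to 10.59 at day 3 and 10.74 to 11.02 at day 7, below its day 0 range, with 1 of 10 genes falling at day 1 and 1 rising at day 7. The part of these cell types in the Notch values was not tested.

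**Figure D3:**
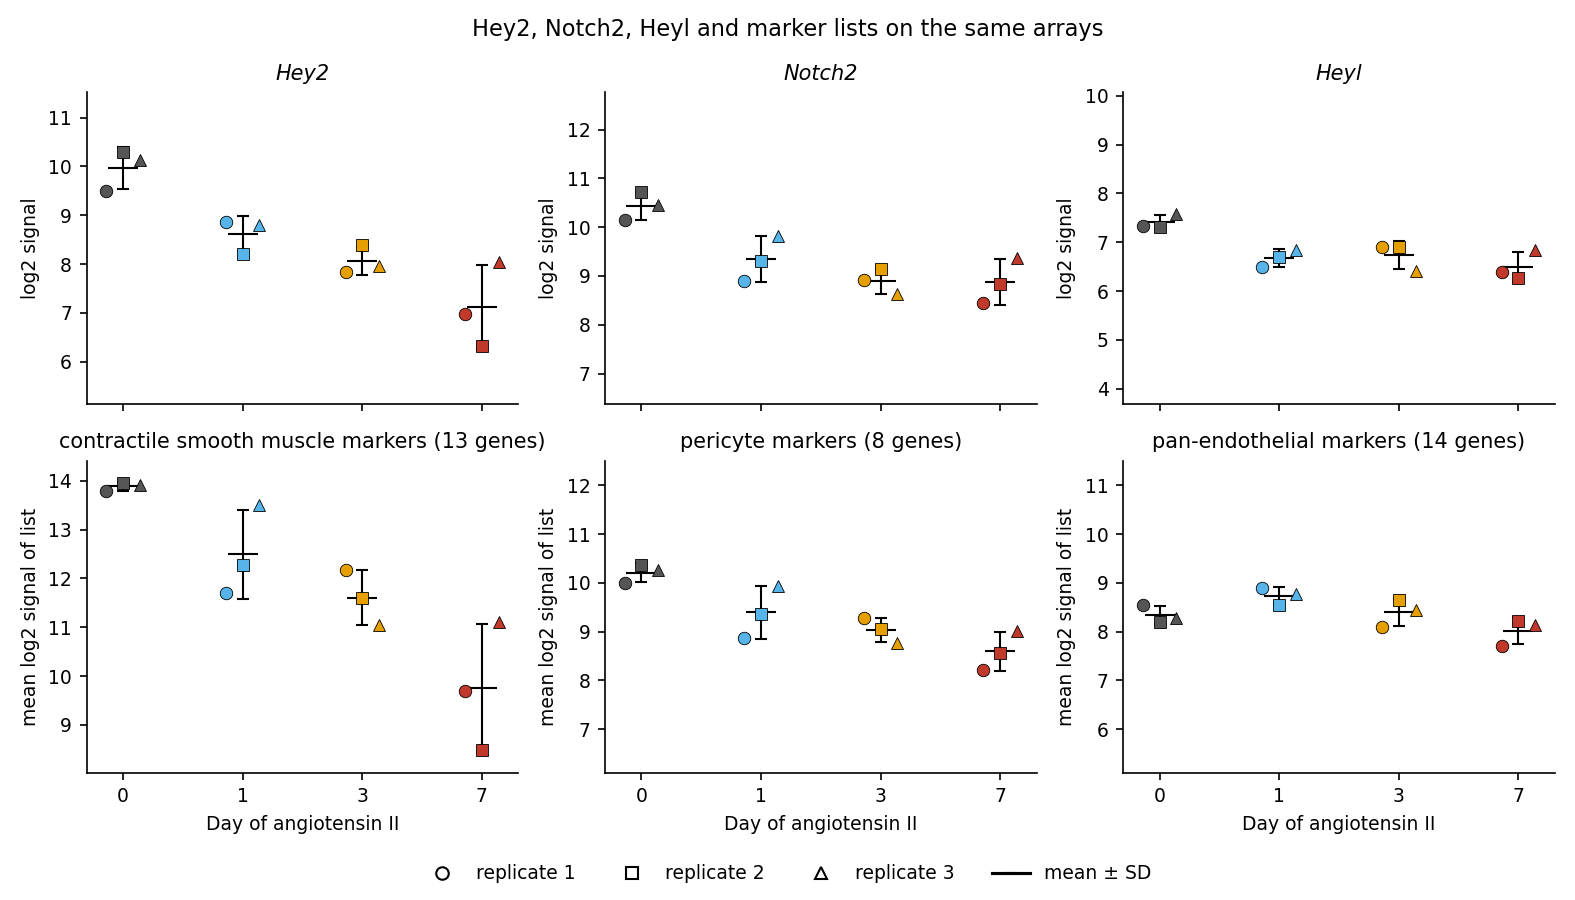
Log2 signal (y axis) by day of Angiotensin II (x axis) of Hey2, Notch2 and Heyl, and the mean log2 signal of 13 contractile smooth muscle, 8 pericyte and 14 pan-endothelial genes, all panels with the same axis span; symbols are replicates and bars mean ± SD. The contractile mean lies at 8.49 to 11.11 at day 7, against 13.79 to 13.97 at day 0, and the endothelial mean at 7.70 to 8.21, against 8.20 to 8.54.

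The genes whose signal ran most like that of Hey2 over the 12 arrays were Smoc1 (Pearson r = 0.986), Pgm5 (0.982), Calhm5 (0.977), Cpe (0.977) and Sema3f (0.968). These values describe 12 arrays that share days and array quality. Smoc1, a secreted matricellular protein, changed by -1.30, -2.17 and -3.28 at days 1, 3 and 7. Pgm5, which belongs to adhesion sites of muscle cells, changed by -1.68, -2.40 and -3.68, and Cpe, a carboxypeptidase of secretory granules, by -3.06, -3.89 and -6.02. Sema3f, a secreted semaphorin, changed by -0.74, -1.20 and -1.83, and Calhm5 by -1.25, -1.83 and -2.49. Of the Notch genes, Notch2 (r = 0.868) and Heyl (r = 0.856) ran closest to Hey2, followed by Rbpj (0.588), Jag1 (0.376), Notch3 (0.332) and Notch1 (0.283). For Hey1 (-0.443), Dll4 (-0.569) and Notch4 (-0.693) r was negative. Hey1 was at background, and Dll4 and Notch4 were dim. With arrays centred on their medians the day 7 changes of Dll4 and Notch4 were -0.02 and 0.02.

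Of the other Notch pathway genes, grouped in 6 lists by role, 50 were tested. At day 1, 0 of them were called by limma. At day 3, 1 rose and 7 fell, and at day 7, 4 rose and 13 fell, with a median change of -0.09 at both times. Of all tested genes 4.57% rose and 7.09% fell at day 3, and 12.1% rose and 13.1% fell at day 7. Rises of 1 and 4 of 50 genes say little beside these shares. The share that fell was above that of all genes at both times, in lists chosen with earlier results known. Of 17 coactivators and corepressors that act with Rbpj, 5 fell at day 3, and at day 7 8 fell and 1 rose. Maml2, a Mastermind coactivator of the Notch complex, averaged 9.52 ± 0.23, 8.84 ± 0.16, 8.34 ± 0.14 and 7.77 ± 0.62 at days 0, 1, 3 and 7. It fell by 1.18 ± 0.26 at day 3 (adjusted p = 0.0226) and by 1.75 ± 0.26 at day 7 (adjusted p = 0.00304). Fhl1, a LIM-domain protein with an isoform that binds Rbpj and also abundant in muscle, averaged 9.39 ± 0.74 at day 7, against 11.49 ± 0.17 at day 0. It fell by 1.49 ± 0.41 at day 3 (adjusted p = 0.0465) and by 2.10 ± 0.41 at day 7 (adjusted p = 0.00836). The histone acetyltransferases serve many pathways beside Notch: Ep300 fell by 0.99 ± 0.24 at day 3 (adjusted p = 0.0302) and Crebbp by 1.23 ± 0.30 at day 7 (adjusted p = 0.0204). All treated arrays of these comparisons lay below the day 0 arrays.

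The gamma-secretase and sheddase list had 8 tested genes, of which 1 fell at day 3 and 2 at day 7, and of 5 glycosyltransferases that modify the receptors 2 fell at day 7. Of all tested genes 7.09% fell at day 3 and 13.1% at day 7, and counts of 1 or 2 in lists this short say little beside these shares. Among 14 ubiquitin and endocytic regulators 1 rose and 1 fell at day 3, and 3 rose and 1 fell at day 7. The ubiquitin ligase Nedd4 fell by 1.06 ± 0.29 at day 3 (adjusted p = 0.0476) and by 1.07 ± 0.29 at day 7 (adjusted p = 0.0295). Of the 3 tested genes of the Hes targets and Nrarp, 0 were called. Hes1, the Notch target of many tissues, averaged 6.90 ± 0.02, 7.17 ± 0.15, 7.20 ± 0.10 and 7.08 ± 0.20 at days 0, 1, 3 and 7, and its changes of 0.27, 0.30 and 0.18 had adjusted p-values of 0.264, 0.117 and 0.233. With centred arrays the changes of Hes1 at days 3 and 7 were 0.12 and -0.09, so its direction at day 7 depends on the scaling. Among other ligands, Jag2 changed by 0.04, 0.21 and 0.05 (adjusted p = 0.921, 0.0990 and 0.636), and Dll1 was below the negative control median on all 12 arrays.

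These counts depended on both scaling and covariates. At day 3 no tested gene of the lists rose in any of the 4 fits that follow, and 3 fell with quantile normalization, 5 with centred arrays, 0 with the control gap and 0 with adipocyte signal. At day 7, 0 rose and 15 fell with quantile normalization, 0 rose and 19 fell with centred arrays, 1 rose and 0 fell with the control gap, and 0 rose and 3 fell with adipocyte signal. Maml2 at day 7 measured -1.54 with the control gap (adjusted p = 0.0945) and -1.70 with adipocyte signal (adjusted p = 0.0122). At day 7 Nedd4 measured -2.17 with quantile normalization and -0.02 with the control gap, and Ep300 measured -0.11 with the control gap. In the same fit with the control gap Crebbp measured -0.16 (adjusted p = 0.685) and Fhl1 -1.34 (adjusted p = 0.265) at day 7. Ep300 at day 3 measured -0.35 there (adjusted p = 0.0599).

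**Figure D4:**
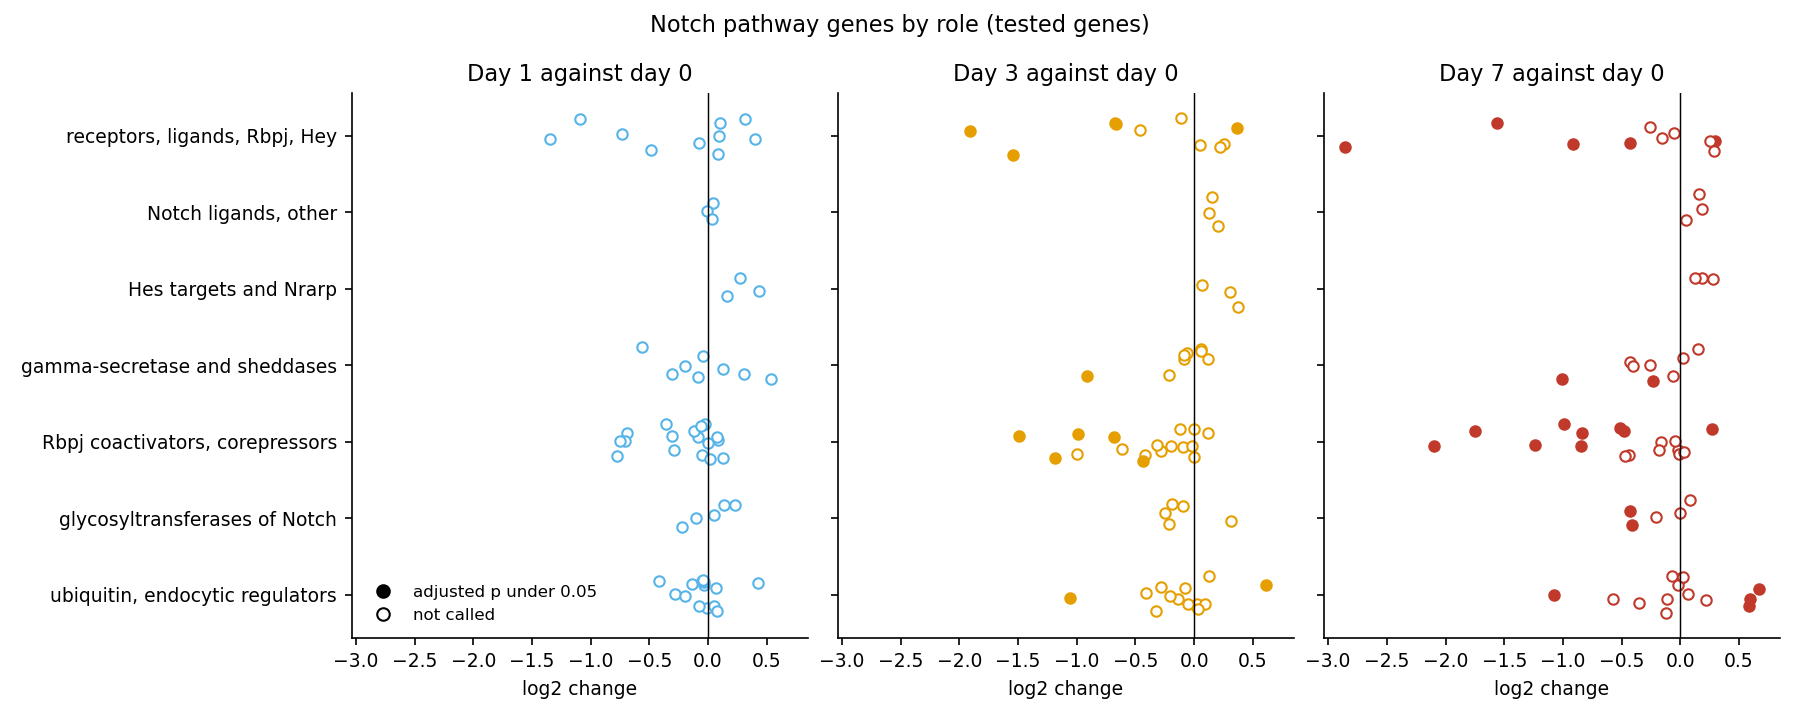
Log2 change against day 0 (x axis) of the 10 Notch genes and of the tested genes of 6 lists of other Notch pathway genes (rows) at days 1, 3 and 7 (panels); filled points have an adjusted p under 0.05. Filled points left of 0 gather at day 7 in the row of coactivators and corepressors of Rbpj, where 8 of 17 fell.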

How the data were processed

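The authors deposited log2 signals per transcript cluster of Affymetrix arrays, and the submitters' processing notes name Affymetrix Expression Console. Version, background correction and normalization: not given in the sources used here. A different Affymetrix mouse array is named in the labels, but the identifiers are transcript clusters of another Affymetrix design, so the annotation that belongs to the deposited table was used.

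Of 72688 features, 65956 were transcript clusters, 31388 of them with 1 gene, 1362 with several (left out) and 33206 with none, and 6732 were control features. The cluster with the highest mean was taken per gene. A gene was tested if its signal was 5.25 (the 40th percentile over clusters) or more on 3 or more of the 12 arrays. Values were used as deposited. Group means were fitted with limma 3.58.1 in R 4.3.3 on all 12 arrays, with empirical Bayes without trend and Benjamini-Hochberg adjustment, and the script was tested on simulated data. The number of arrays limits the precision. All 10 genes were named, with Hes1, Jag2, Dll1, up to 4 called pathway genes with the largest change per comparison with day 0, and the 5 genes most correlated with Hey2. The members, lists and promoter motif were chosen with earlier results of these data known. Other genes are given as marker values. Alternatives were quantile normalization, centring, no filter or a filter at the 60th percentile, mean of clusters, variance trend with robust estimation, the replicate block, covariates for control features and adipocyte signal, the 6 arrays compared, and leaving out each array.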

Additional observations from a re-analysis of the deposited data

How the results depend on the processing

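The counts of called genes among the 10 were 0 at day 1, 4 at day 3, 5 at day 7 and 3 in the F test. At day 3 the count was 2 with quantile normalization and 2 with centred arrays, and 0 with either the control feature gap or adipocyte signal as a covariate. At day 7 it was 0 with the control feature gap, 3 with adipocyte signal and 3 in the fit of the 6 arrays compared, and in the F test it was 0 with the control feature gap. Without 1 array the counts ranged over 0 to 2 at day 1, 0 to 5 at day 3, 3 to 5 at day 7 and 1 to 4 in the F test, and stayed at 0 between treated times. The cause of these differences was not tested. Over all alternatives Hey2 at day 7 ranged over -3.32 to -2.46, Notch2 over -1.84 to -0.67 and Heyl over -1.19 to -0.55, and no called change reversed. Of 902 values of uncalled changes 46 changed sign, and 5 became called, among them Notch2 at day 1 without day 1 replicate 3 (adjusted p = 0.0387), and Hey2 (0.0431) and Heyl (0.0407) at day 1 without day 7 replicate 3. The median change of all genes at day 7 was 0.10 as deposited, -0.11 after quantile normalization and -0.19 after centring. With the replicate block the counts were 0, 3, 5 and 3, the Heyl call at day 3 being lost (adjusted p = 0.0662), and in the F test Heyl was lost and Notch4 gained. Same-numbered arrays deviated together in 7 of 18 pairs (r over 0.1), with r from -0.508 to 0.663. Differently numbered arrays did so in 10 of 36 pairs, with r from -0.652 to 0.463. The numbers were not taken to pair the samples, though these values do not exclude a pairing. The dim signals of Hey1 and Dll1, near or under the negative controls, limit what could be seen of them.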
